A study of Mus musculus with 4 samples.

Results

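Saa3 and Hp, which encode serum amyloid A3 and haptoglobin, are 2 of the 32285 genes counted in these libraries, and they were matched by gene symbol. They were chosen with the results in view, because Saa3 was higher in all 3 treated libraries than in the control, so that difference is described here and not tested. B16-F10 melanoma cells, a mouse melanoma line, were grown for 12 days under the skin of C57BL/6 mice from an inoculum of 500000 cells, and adenovirus was then injected into the tumors. Ad-MEM40, which the treatment label calls ISF35, carries a CD40 ligand chimera. Ad-mIFNB carries mouse interferon beta, and Ad-COMBO is both together. Ad-Null is the empty virus, so every group had received adenovirus. Cells of the tumors, sorted for CD11c and MHC-II, were profiled by droplet single-cell RNA sequencing. Each virus had 1 library, in which cells of 3 tumors were pooled and cannot be told apart. The promoters of the viral genes and the time from injection to sorting were not given in the sources used here.

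Acute-phase proteins are made in larger or smaller amounts during inflammation, mostly by the liver, where interleukin 6 acts through STAT3, and interleukin 1 and tumor necrosis factor act through NF-kB and C/EBP factors. Mouse Saa3 is the serum amyloid A made mainly outside the liver, in macrophages and adipocytes among others, while its human counterpart is a pseudogene. Serum amyloid A proteins bind lipids and act on formyl peptide and Toll-like receptors of myeloid cells. Haptoglobin binds free haemoglobin and so limits oxidative damage by heme. Besides the liver, cells of the monocyte and granulocyte lineages are known to make it.

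Saa3 (ENSMUSG00000040026) is a protein-coding gene on the minus strand of chr7:46711998-46715700, and Hp (ENSMUSG00000031722) one on the minus strand of chr8:109575128-109579172 (GRCm38, GENCODE M21). Saa3 lies in the serum amyloid A cluster, 12298 bp from Saa4, 24797 bp from Saa1 and 36090 bp from Saa2. Of its 2556 distinct 50-base stretches of transcript, 9 also occur in Saa1 and 0 in Saa2 or Saa4. The Saa3 promoter is shown because most comparisons here turn on this gene. It covers 250 bases before to 50 after the RefSeq start on the minus strand, chr7:46715627-46715926 of GRCm38.p6, and capitals mark matches to a C/EBP motif and to a TATA motif.

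Saa3 promoter: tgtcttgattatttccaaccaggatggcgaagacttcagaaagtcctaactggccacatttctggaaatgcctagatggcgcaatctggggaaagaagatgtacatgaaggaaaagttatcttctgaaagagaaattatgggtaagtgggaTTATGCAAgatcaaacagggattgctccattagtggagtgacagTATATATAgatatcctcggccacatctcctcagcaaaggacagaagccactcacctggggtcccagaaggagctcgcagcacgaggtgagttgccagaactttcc

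Motifs were searched on both strands. The C/EBP motif TTNNGCAA matched 1 time, 99 bases before the start, and 10.8% of the 32851 mouse promoters of this length hold it. TATATA matched 2 times, overlapping, 55 and 53 bases before the start (held by 5.67% of promoters). The interferon response element GAAANNGAA matched 1 time, 125 bases before the start (8.56% of promoters). The STAT motif TTCNNNGAA had 0 matches in this window (8.30% of promoters), and so had the NF-kB motif (8.46%).

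After filtering for at least 500 genes and at most 10% mitochondrial UMIs, 15656, 1810, 671 and 8745 cells remained for Ad-MEM40, Ad-mIFNB, Ad-COMBO and Ad-Null. Their median depth was 9483, 13615.5, 11434 and 15277 UMIs. Up to 10000 cells were loaded per library, fewer than the 15656 barcodes counted as cells in Ad-MEM40. Why they exceed the loaded number was not tested. Of 32523 barcodes, 93 occurred in more than 1 library. Cells were put into classes by marker genes, and 29.8% of Ad-MEM40, 36.2% of Ad-mIFNB, 28.2% of Ad-COMBO and 28.2% of Ad-Null cells stayed ungated. The labelled cell type is DC, but macrophage-gated cells were also present, at 26.1% of Ad-MEM40, 10.9% of Ad-mIFNB, 12.8% of Ad-COMBO and 16.1% of Ad-Null cells, beside conventional DC of type 1 (cDC1) and type 2 (cDC2), mature DC, plasmacytoid DC (pDC), monocytes and melanoma cells. Levels are UMIs per 1000000 UMIs (CPM) with exact 95% Poisson intervals, and shares of cells carry Clopper-Pearson intervals. Both cover counting error only, since no library had a replicate.

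Saa3 was higher in every treated library than in the control, and highest in Ad-COMBO. Ad-MEM40 cells had 73.8 CPM (72.5 to 75.0), Ad-mIFNB cells 91.4 CPM (88.0 to 95.02) and Ad-COMBO cells 182 CPM (174 to 191), against 20.5 CPM (19.8 to 21.2) in Ad-Null. No 2 of these counting intervals overlapped. The log2 ratios over Ad-Null, with 5 CPM added to both sides, were 1.63 for Ad-MEM40, 1.92 for Ad-mIFNB and 2.88 for Ad-COMBO. Among all genes with at least 20 UMIs over the pair of libraries, a level 1.5-fold or more above Ad-Null was found for 0.776% with Ad-MEM40, 2.65% with Ad-mIFNB and 5.98% with Ad-COMBO. A level 1.5-fold or more below it was found for 0.34%, 1.41% and 3.22%. Nothing is read from Saa3 against these shares, as it was chosen for this rise. The 3 ratios share the Ad-Null library. Ad-COMBO exceeded Ad-MEM40 by a log2 ratio of 1.25 and Ad-mIFNB by 0.96.

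Hp was a rare transcript and did not follow Saa3. Ad-MEM40 cells had 5.53 CPM (5.19 to 5.88), Ad-mIFNB cells 1.016 CPM (0.680 to 1.46) and Ad-COMBO cells 1.54 CPM (0.861 to 2.54), against 3.00 CPM (2.74 to 3.28) in Ad-Null. The value was above the control in Ad-MEM40 and below it in the other two treated libraries. These levels rest on 1005, 29 and 15 UMIs in the treated libraries and 483 in Ad-Null. The plain ratios to Ad-Null were 1.84, 0.338 and 0.512. With 5 CPM added to both sides, which is more than most of these levels, the log2 ratios were 0.40, -0.41 and -0.29 and none reached 1.5-fold, while with 1 CPM added they were 0.71, -0.99 and -0.66 and all did. Ad-COMBO stood at a log2 ratio of -0.69 to Ad-MEM40 and 0.12 to Ad-mIFNB. All 15 Hp UMIs of Ad-COMBO came from 3 cells, with 7, 7 and 1.

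**Figure D1:**
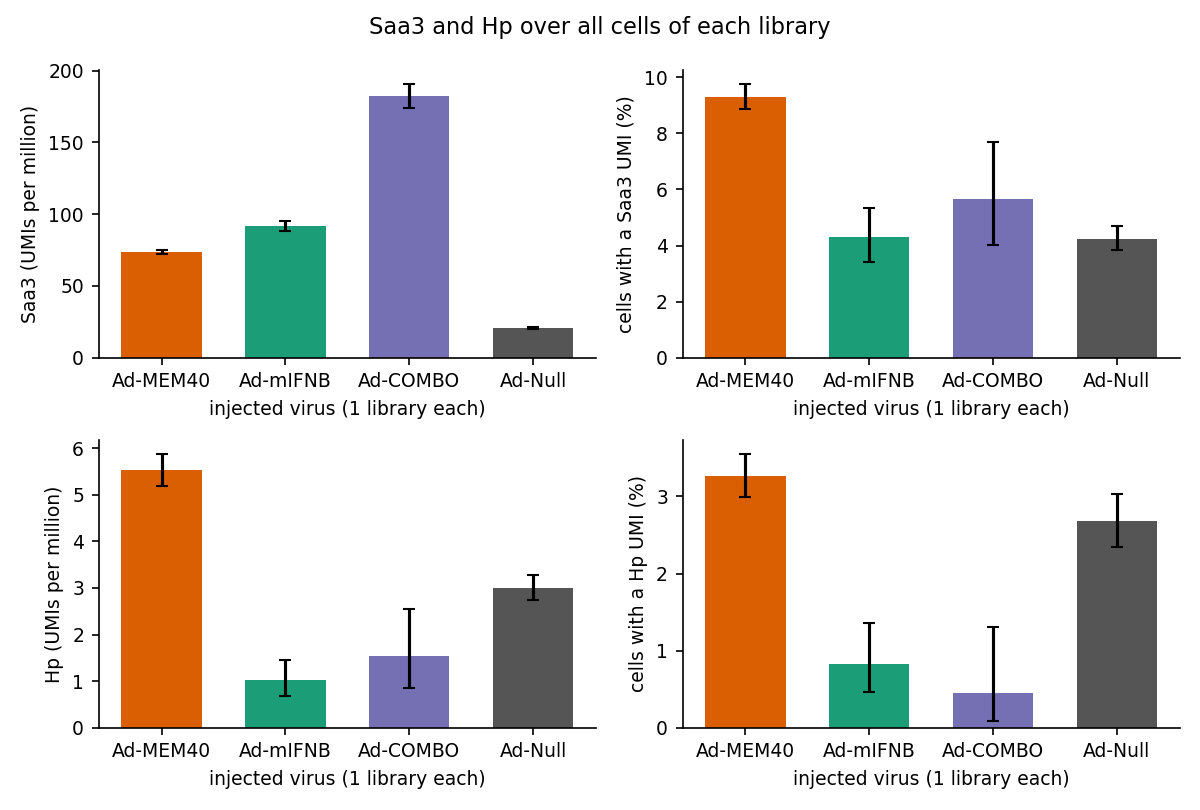
Level (CPM, left) and share of cells with at least 1 UMI (%, right) of Saa3 (top) and Hp (bottom) in the 4 libraries. Bars are library values and whiskers 95% counting intervals. Saa3 reached 182 CPM in Ad-COMBO against 20.5 CPM in Ad-Null, whereas Hp was highest in Ad-MEM40 at 5.53 CPM.

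The share of cells with Saa3 ordered the libraries differently from the level. Ad-MEM40 had 9.31% of cells with a Saa3 UMI (8.86 to 9.77), Ad-mIFNB 4.31% (3.42 to 5.35) and Ad-COMBO 5.66% (4.04 to 7.69), against 4.24% (3.83 to 4.69) for Ad-Null. With every cell thinned to 1000 UMIs, the shares were 2.88%, 1.46% and 2.41%, against 0.743% in Ad-Null, leaving out 177, 26, 6 and 136 shallower cells. At equal depth the intervals of all 3 treated libraries lay above that of the control, by a narrow margin for Ad-mIFNB (0.954 to 2.13, against 0.573 to 0.948). For Hp the unthinned shares were 3.26%, 0.829% and 0.447%, against 2.68% in Ad-Null, and the thinned shares 0.652%, 0.0561% and 0.150%, against 0.267%.

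Saa3 was concentrated in a few cells. The highest cell had 320 UMIs in Ad-MEM40, 793 in Ad-mIFNB and 521 in Ad-COMBO, against 878 in Ad-Null. That single cell held 2.39%, 30.4% and 29.3% of the Saa3 UMIs of the treated libraries, and 26.6% in Ad-Null. The 10 highest cells held 20.5% in Ad-MEM40, 89.5% in Ad-mIFNB and 94.9% in Ad-COMBO, against 63.1% in Ad-Null. As the libraries differ in size, the highest 1% of cells were also counted, which were 157, 19 and 7 cells in the treated libraries and 88 in Ad-Null. They held 75.8% in Ad-MEM40, 96.1% in Ad-mIFNB and 88.6% in Ad-COMBO, against 91.2% in Ad-Null. The 10 highest cells were macrophage-gated in 5 cases in Ad-MEM40, 9 in Ad-mIFNB and 8 in Ad-COMBO, against 6 in Ad-Null. The highest and the third highest cell of Ad-Null, with 878 and 206 UMIs, were fibroblast-gated and had 7 and 6 of 7 fibroblast markers. Its second highest cell, with 339 UMIs, was monocyte-gated and was called a doublet.

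How far the rise holds without those cells differed between the viruses. Without the 10 highest cells of each library, Saa3 stood at 58.7 CPM in Ad-MEM40, 9.68 in Ad-mIFNB and 9.52 in Ad-COMBO, against 7.58 in Ad-Null. The log2 ratio over Ad-Null was then 2.34 for Ad-MEM40, 0.22 for Ad-mIFNB and 0.21 for Ad-COMBO. As 10 cells are a larger share of a small library, the highest 1% of cells were also left out, which gave 18.1, 3.60 and 21.3 CPM, against 1.82 CPM in Ad-Null, and log2 ratios of 1.76, 0.33 and 1.95. With 5 CPM added, the ratio of Ad-MEM40 stayed past 1.5-fold under both, that of Ad-COMBO under the second and that of Ad-mIFNB under neither. For Ad-mIFNB without its highest 1%, however, the added 5 CPM exceed both levels, and its interval (2.94 to 4.38) still lay above that of Ad-Null (1.62 to 2.05), at a plain ratio of 1.98. Ad-COMBO lost its lead over Ad-MEM40, at a log2 ratio of -2.13 without the 10 highest cells and 0.19 without the highest 1%. The 1% cut took 157 and 7 cells of Ad-MEM40 and Ad-COMBO, where 218 and 14 had at least 1000 CPM and at least 3 UMIs. Some such cells thus remained there, whereas in Ad-Null it took 88 cells, more than its 24 such cells. Without the highest 2%, Saa3 stood at 8.54 CPM in Ad-MEM40, 1.55 in Ad-mIFNB and 4.245 in Ad-COMBO (3.03 to 5.78). Ad-Null then had 1.25 CPM (1.08 to 1.44).

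**Figure D2:**
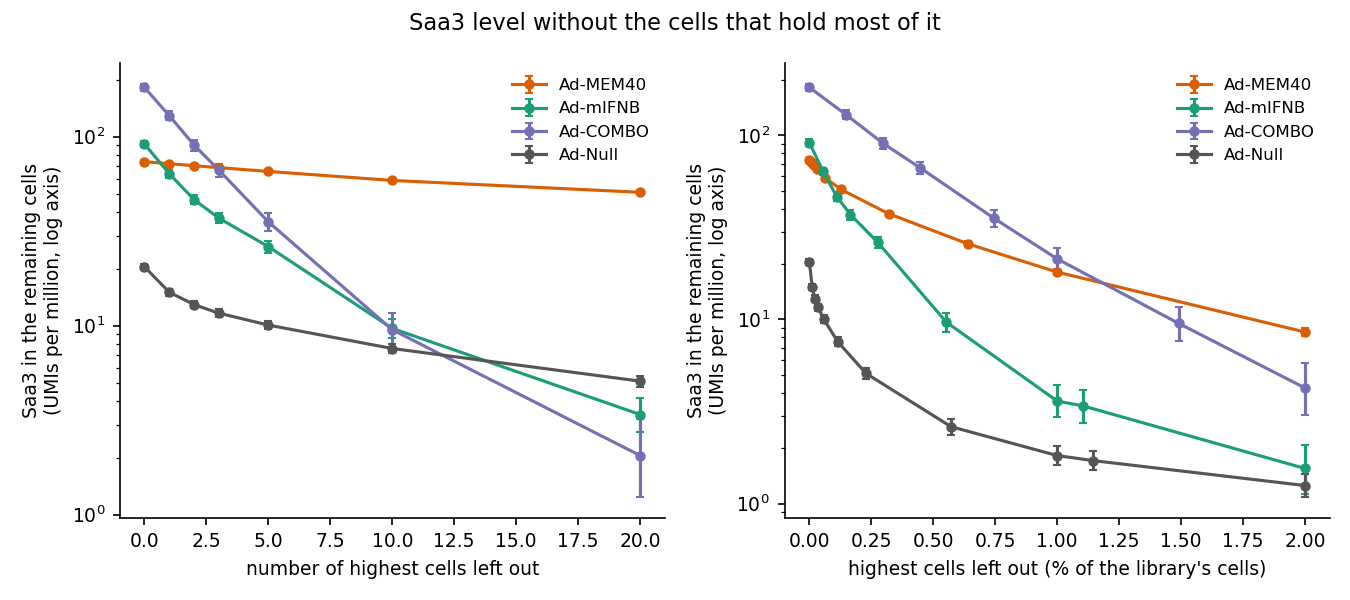
Saa3 level in the remaining cells (CPM, log axis) as the cells with most Saa3 UMIs are left out, by number of cells (left) and as a percentage of the library's cells (right). Lines are libraries and whiskers 95% counting intervals. Without 10 cells, Ad-MEM40 stands at 58.7 CPM while Ad-mIFNB and Ad-COMBO approach the 7.58 CPM of Ad-Null.

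Macrophages held most of the Saa3 in the treated libraries. Macrophage-gated cells, defined by C1q genes, Apoe, Folr2 and related markers, had 159 CPM of Saa3 (156 to 163) for Ad-MEM40, 552 CPM (530 to 575) for Ad-mIFNB and 788 CPM (746 to 831) for Ad-COMBO, against 45.3 CPM (42.8 to 47.8) for Ad-Null. They comprised 4087, 197 and 86 cells, against 1409 in Ad-Null. The intervals did not overlap, and the log2 ratios over Ad-Null were 1.71, 3.47 and 3.98. Among all genes measured in macrophage-gated cells, 0.412% were 1.5-fold or more above Ad-Null with Ad-MEM40, 3.45% with Ad-mIFNB and 6.47% with Ad-COMBO. These cells carried 62.5%, 87.8% and 74.4% of the Saa3 UMIs of the treated libraries, and 38.6% in Ad-Null. Without the 10 highest macrophages of each library, the log2 ratios were 2.41 for Ad-MEM40, 0.25 for Ad-mIFNB and 0.14 for Ad-COMBO. Without the highest 1% they were 2.12, 3.85 and 4.82. Macrophages with at least 1000 CPM and at least 3 UMIs of Saa3 were 3.33%, 6.09% and 12.8% of the class, against 1.14% in Ad-Null. Leaving out 1% thus kept most of them in every treated library, whereas in Ad-Null it came close to their whole share. These ratios do not show the rise outside such cells.

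Shares of macrophages with Saa3 pointed the same way as the levels. A Saa3 UMI was found in 14.3% (13.3 to 15.4), 16.2% (11.4 to 22.1) and 23.3% (14.8 to 33.6) of macrophage-gated cells, against 7.17% (5.88 to 8.64) in Ad-Null, at median depths of 10859, 17726, 16030 and 16877 UMIs. Thinned to 1000 UMIs, the shares were 5.41%, 6.70% and 15.3%, against 2.23%. In cDC1, a lineage not known for Saa3, the unthinned shares were 6.24%, 1.42% and 5.37%, against 3.53% in Ad-Null, at 12132, 18440, 18585 and 20244 UMIs. These shares are taken as a background, and whether it comes from free RNA was not tested. In cDC1, 1 cell held 41 of 211 Saa3 UMIs in Ad-MEM40 and 1 held 38 of 106 in Ad-Null. Thinned, cDC1 had 1.03%, 0% and 0%, against 0.612%.

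Each library also had its own mix of classes. With the UMI shares of the classes exchanged, Ad-Null would have had 35.5 CPM of Saa3 with the mix of Ad-MEM40, 13.2 CPM with that of Ad-mIFNB and 12.5 CPM with that of Ad-COMBO, against the 20.5 CPM it had. The first value rests on 4 fibroblast-gated cells of Ad-Null with 7871 CPM, since fibroblast-gated cells made up 0.215% of the UMIs of Ad-MEM40 and 0.0862% of those of Ad-Null. Without fibroblast-gated cells the mix of Ad-MEM40 gave 18.6 CPM, against the 13.7 CPM then measured in Ad-Null and the 70.5 CPM in Ad-MEM40. The mixes of Ad-mIFNB and Ad-COMBO, which had no such cells, gave 13.2 and 12.5 CPM, close to the same 13.7 CPM.

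Conventional DC had little Saa3, and the levels of mature DC and pDC depended on how the cells were classified. The cDC1 stood at 7.59, 0.952 and 3.804 CPM, against 3.37 CPM in Ad-Null, and the cDC2 at 6.75, 0.309 and 0 CPM, against 2.59 CPM. The 0 of Ad-COMBO came from 29 cells, in which 3 UMIs would be 5.399 CPM. Mature DC, which express Ccr7 and Fscn1, had 53.0 CPM (49.2 to 56.9) for Ad-MEM40, 53.3 CPM (45.5 to 61.9) for Ad-mIFNB and 11.8 CPM (7.33 to 18.1) for Ad-COMBO, against 1.98 CPM (1.25 to 2.97) for Ad-Null. The log2 ratios were 3.05, 3.06 and 1.27, but 1 cell held 42.5% of the Saa3 UMIs in Ad-MEM40, 91.7% in Ad-mIFNB and 61.9% in Ad-COMBO. That Ad-MEM40 cell had 314 UMIs and lay in a cluster named for monocytes. The Ad-mIFNB cell, with 155 UMIs, had 10 macrophage markers detected and lay in an unnamed cluster led by Ccl22, Ccr7 and Fscn1, genes of mature DC. In that unnamed cluster Saa3 stood at 73.4, 123 and 480.1 CPM, against 8.09 CPM in Ad-Null, over 1312, 52 and 9 cells, against 398. The same Ad-mIFNB cell held 155 of the 233 Saa3 UMIs there. In Ad-COMBO 1 macrophage-gated cell held 186 of 191. In the larger of the clusters named for mature DC, Saa3 stood at 9.60 CPM (7.59 to 12.0) for Ad-MEM40, 3.42 CPM (1.57 to 6.50) for Ad-mIFNB and 2.87 CPM (0.930 to 6.69) for Ad-COMBO, against 1.81 CPM (1.05 to 2.90) in Ad-Null, and only the interval of Ad-MEM40 was apart from that of Ad-Null. The pDC had 18.8 and 44.1 CPM in Ad-MEM40 and Ad-mIFNB, against 2.36 CPM in Ad-Null, with 64.6% and 98.1% of the treated UMIs in 1 cell, and 0 UMIs were seen in the 28 pDC of Ad-COMBO, where 3 UMIs would be 8.74 CPM. In the cluster named for pDC, Saa3 stood at 5.64, 1.36 and 0 CPM, against 2.22 CPM in Ad-Null.

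In monocytes the Saa3 levels depended on how the cells were classified. Monocyte-gated cells had 63.2 CPM of Saa3 in Ad-MEM40 and 2.79 CPM in Ad-mIFNB, against 33.4 CPM in Ad-Null, and 0 UMIs in the 27 cells of Ad-COMBO. In Ad-Null 84.3% of it lay in 1 cell, the called doublet with 339 UMIs. In the cluster named for monocytes, which held 39.2% of the monocyte-gated cells, Saa3 stood at 109 CPM (104 to 114) for Ad-MEM40, 6.16 CPM (2.82 to 11.7) for Ad-mIFNB and 173 CPM (123 to 235, over 13 cells) for Ad-COMBO, against 7.76 CPM (6.39 to 9.35) in Ad-Null. The Ad-COMBO value rests on 1 ungated cell of 1697 UMIs, which held 39 of the 40 Saa3 UMIs. Ungated cells had 49.4, 10.1 and 222 CPM, against 8.49 CPM in Ad-Null, and in Ad-COMBO 90.5% of that lay in 1 cell, which clustered with the macrophages.

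**Figure D3:**
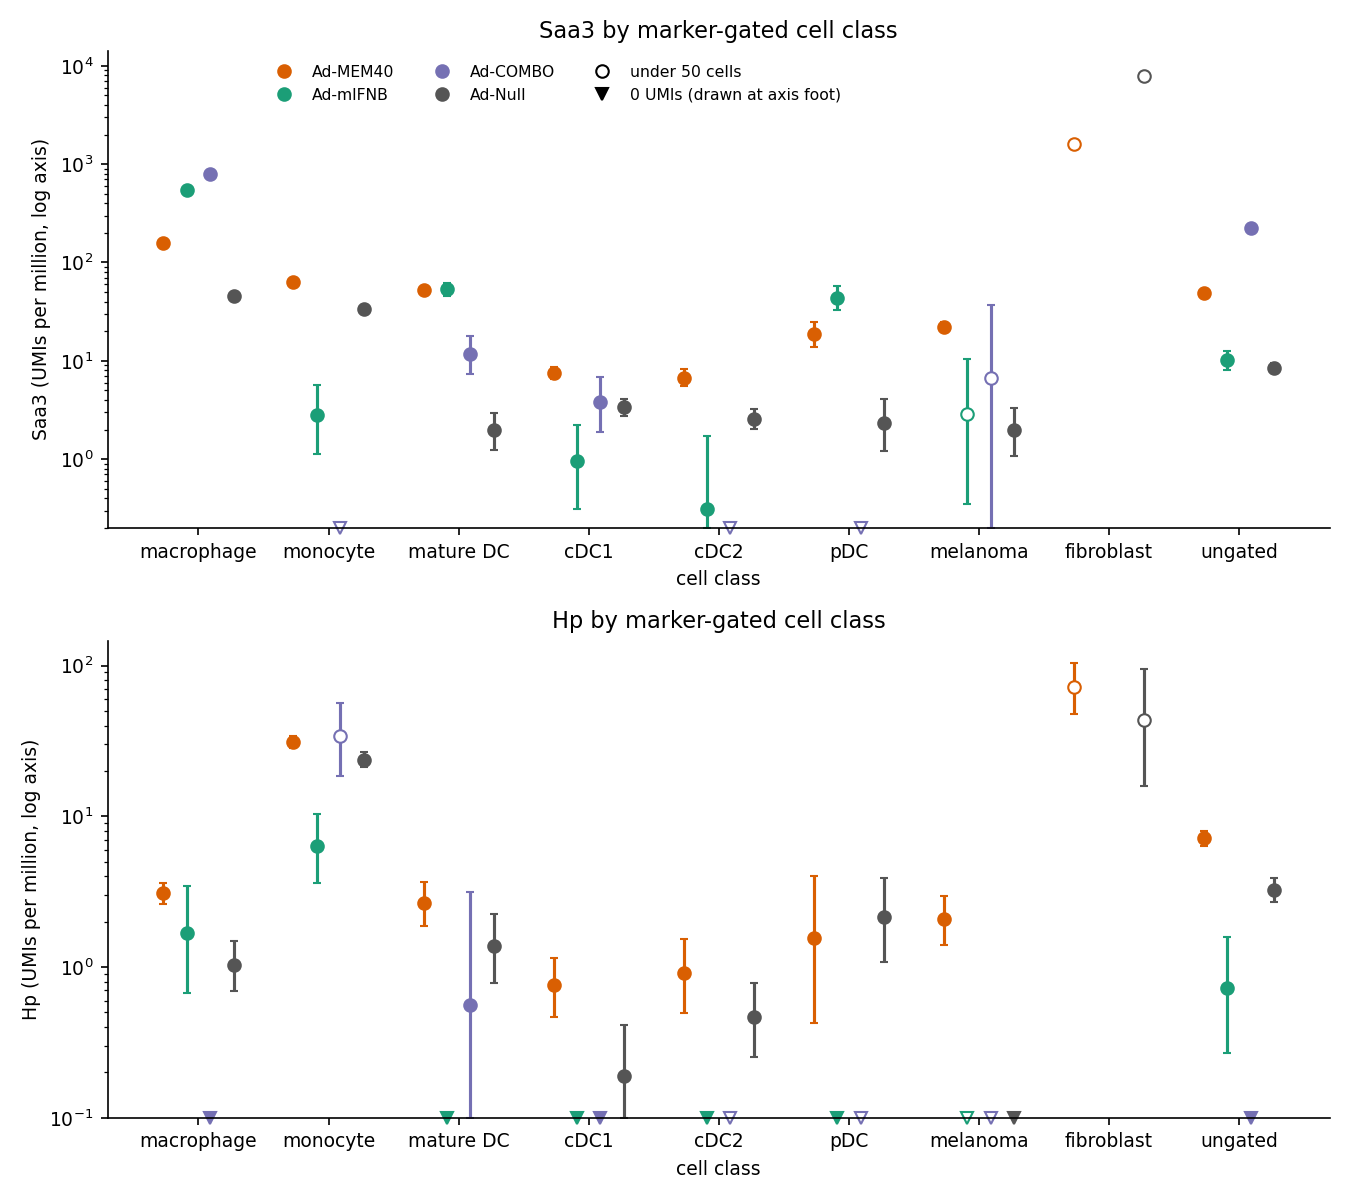
Saa3 (top) and Hp (bottom) in CPM (log axis) by marker-gated cell class, with the 4 libraries side by side in each class. Whiskers are 95% Poisson intervals, hollow points have under 50 cells and triangles 0 UMIs. Among classes of at least 50 cells, Saa3 was highest in macrophages, at 788 CPM in Ad-COMBO and 45.3 CPM in Ad-Null. Hp was highest in monocytes, except in Ad-COMBO, which had only 27 of them.

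Fibroblast-gated cells had far higher Saa3 levels than macrophages and were very few. The 20 of Ad-MEM40 had 1603 CPM (1480.0 to 1734) and the 4 of Ad-Null 7871 CPM (7411 to 8353), while Ad-mIFNB and Ad-COMBO had 0 such cells. They carried 4.67% of the Saa3 UMIs of Ad-MEM40 and 33.1% of those of Ad-Null. The 7 fibroblast markers summed to 64.99, 0.631 and 0.410 CPM in the treated libraries, against 19.2 CPM in Ad-Null, with 7, 6, 3 and 7 of the markers detected and Col3a1, Lum, Pdgfra and Pdgfrb at 0 in Ad-COMBO. Without fibroblast-gated cells the log2 ratios of Saa3 over Ad-Null were 2.01, 2.37 and 3.32, larger than with them. Hp stood at 71.6 CPM in these cells of Ad-MEM40 and 43.3 CPM in those of Ad-Null. In Ad-MEM40 1 cell, which clustered with the macrophages, held 17 of the 28 Hp UMIs, and in Ad-Null 1 cell held all 6. Melanoma-gated cells had 22.3 CPM in Ad-MEM40, 74.3% of it in 1 called doublet, against 1.96 CPM in Ad-Null.

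Other cell types known to make acute-phase proteins left few traces. The 6 hepatocyte markers summed to 0.698, 0.280 and 0.718 CPM in the treated libraries, against 0.497 CPM, with Alb, Fgb and Serpina1a at 0 in all 4. The 5 adipocyte markers summed to at most 0.175 CPM. The 10 neutrophil markers summed to 17.1, 10.8 and 12.4 CPM, against 10.00 CPM in Ad-Null.

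Cells with at least 1000 CPM and at least 3 UMIs of Saa3 were called Saa3-rich, a threshold set after the values were seen. They numbered 218 in Ad-MEM40 (1.39%, 1.21 to 1.59), 17 in Ad-mIFNB (0.939%, 0.548 to 1.4995) and 14 in Ad-COMBO (2.09%, 1.15 to 3.48), against 24 in Ad-Null (0.274%, 0.176 to 0.408). They held 79.9%, 95.3% and 95.9% of Saa3 UMIs in the treated libraries, and 75.8% in Ad-Null. Outside them Saa3 stood at 15.1, 4.37 and 7.61 CPM, against 4.98 CPM. Of the macrophage-gated cells, Ad-MEM40 had 3.33% rich ones (2.80 to 3.92), Ad-mIFNB 6.09% (3.19 to 10.4) and Ad-COMBO 12.8% (6.56 to 21.7), against 1.14% (0.650 to 1.84) for Ad-Null. None of the treated intervals overlapped that of Ad-Null, and with thresholds of 500 or 2000 CPM the order of the 4 libraries was the same. Rich macrophages had a median of 31, 110.5 and 40 Saa3 UMIs, against 49.5 in Ad-Null. Their median depth was 12906, 28294 and 13306 UMIs, against 15732 in Ad-Null, and that of Saa3-negative macrophages 10465, 17624 and 15957, against 16532.

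**Figure D4:**
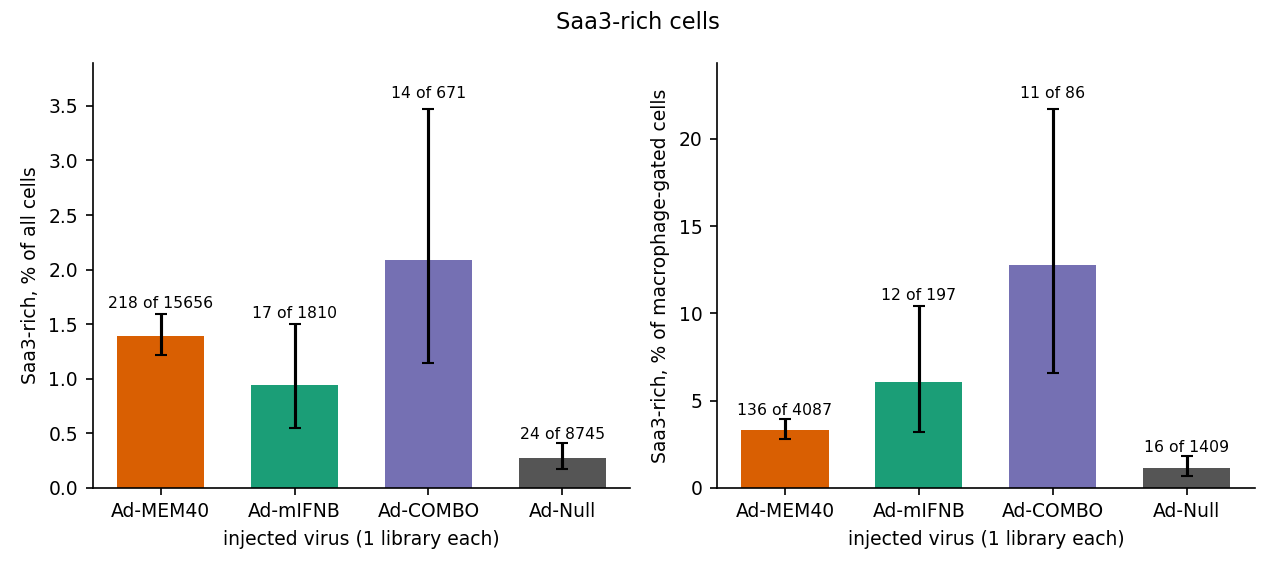
Share of Saa3-rich cells among all cells (left) and among macrophage-gated cells (right) in each library, in percent, with 95% Clopper-Pearson intervals and the counts above the bars. Among macrophages the share was 3.33%, 6.09% and 12.8% in the treated libraries and 1.14% in Ad-Null.

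In every library except Ad-MEM40 most Saa3-rich cells fell into 1 macrophage cluster. All cells were clustered with Saa3 and Hp left out of the genes used. The cluster led by Retnla, Lyz1, Cd5l, Lyve1, Ccl24 and Saa3 held 104 of 218 rich cells in Ad-MEM40. It held 13 of 17 in Ad-mIFNB and 10 of 14 in Ad-COMBO, against 17 of 24 in Ad-Null. Its leading genes were ranked afterwards over all genes, Saa3 included. The Saa3 levels of the cluster were not used to form it and are given as a description. This cluster made up 7.08%, 2.38% and 5.07% of cells in the treated libraries, against 3.69% in Ad-Null. Saa3 in it stood at 424 CPM (414 to 435), 2540.3 CPM (2437 to 2646) and 1976.5 CPM (1869.7 to 2088) in the treated libraries, against 162 CPM (153 to 171) in Ad-Null. The macrophage cluster led by Atp6v0d2, Fabp4, Mmp12 and Spp1 had 48.5, 1.89 and 4.02 CPM, against 9.80 CPM in Ad-Null. In this second cluster the interval of Ad-MEM40 lay above that of Ad-Null, that of Ad-mIFNB below it, and that of Ad-COMBO (1.10 to 10.3) overlapped it (8.20 to 11.6).

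The Saa3-rich macrophages were also described by genes other than Saa3. In Ad-MEM40 the 136 Saa3-rich macrophages were set against 3501 macrophages without a Saa3 UMI, and 5.3% of the 12708 genes measured were 1.5-fold or more above the level of the negative ones. The same was found for 15.7% of genes in Ad-mIFNB, 20.2% in Ad-COMBO and 13.1% in Ad-Null, and for 2.27% of 6688 genes in all 3 of them. Of the 12 highest named genes picked in Ad-MEM40, 9 were past 1.5-fold in the rich macrophages of all 3 other libraries, and 7 of these had at least 20 UMIs in each. The others of the 9 were Lyve1, on 1 UMI in rich and 0 in Saa3-negative macrophages of both Ad-mIFNB and Ad-COMBO, and Cd209f, on 5 and 0 UMIs in Ad-COMBO. Cd5l, a secreted protein of tissue macrophages, had 199 CPM in rich and 11.7 CPM in Saa3-negative macrophages of Ad-MEM40, and 508 and 27.6 CPM in those of Ad-mIFNB. In Ad-COMBO it had 765 and 33.0 CPM, and in Ad-Null 407 and 23.1 CPM. Its log2 ratios were 3.61, 3.97, 4.34 and 3.88 in the 4 libraries. As rich cells numbered 12 in Ad-mIFNB, 11 in Ad-COMBO and 16 in Ad-Null, single cells weigh heavily there. The median mitochondrial share of rich and Saa3-negative macrophages was 2.65% and 2.69% in Ad-MEM40, 1.123% and 2.07% in Ad-mIFNB, and 0.644% and 2.49% in Ad-COMBO, and in Ad-Null 2.38% and 3.40%. Its part in the gene differences was not tested.

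Lyve1, a hyaluronan receptor, had log2 ratios of 3.07 in Ad-MEM40 and 4.24 in Ad-Null. Cd209f, a lectin of the DC-SIGN family, had 2.79, 4.54 and 2.44, against 4.42 in Ad-Null. Fcna (ficolin A) had 2.60, 2.07 and 0.95, against 3.43, and C4b, complement component 4, had 2.03, 1.88 and 2.65, against 2.57. The chemokine Ccl5 had 2.14, 1.95 and 3.76, against 1.71. Bst1, an ectoenzyme, had 2.02, 3.67 and 2.22, against 2.05. Slpi, a protease inhibitor, had 2.83, 0.38 and 1.46, against 1.87, with at most 7 UMIs in the rich cells outside Ad-MEM40. Cp (2.27, 1.71 and 2.34, against 1.33) and Ms4a8a (1.97, 2.66 and 1.65, against 2.25) complete the 9, while Mgst1, a glutathione transferase, and Mt2, a metallothionein, were past 1.5-fold in 2 of the 3 others.

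Genes 1.5-fold or more lower in rich macrophages were 4.37% of those measured in Ad-MEM40, 17% in Ad-mIFNB and 14.5% in Ad-COMBO, against 19.7% in Ad-Null, and 2.05% were lower in all 3 libraries other than Ad-MEM40. Of the 8 named genes picked in Ad-MEM40, 2 were lower in all 3 others, namely Fabp4 and Hist2h2ac, a histone. Fabp4, a fatty acid binding protein, had log2 ratios of -2.36, -2.04 and -5.01, against -1.69 in Ad-Null. The histones Hist1h1e, Hist1h1b and Hist1h2ae, and Stmn1, were past 1.5-fold lower in Ad-MEM40, Ad-mIFNB and Ad-Null. In Ad-COMBO they stood at -0.52, 0.48, 0.070 and 0.70. The part of cycling cells in this was not tested. Spp1 (osteopontin) was lower by far in the treated libraries, at -2.95, -6.81 and -6.42, but at 0.86 in Ad-Null. Cx3cr1, the fractalkine receptor, was at -1.58, -2.95 and 0.13, against -2.83. Summed monocyte markers had log2 ratios of 0.45, 0.56 and 0.22, against 1.23 in Ad-Null, summed neutrophil markers 0.43, 0.46 and 1.11, against 0.42, and summed mature DC markers 0.73, -0.21 and 2.18, against 0.54. Their part in the differences, and that of depth, was not tested. Fibroblast markers had 6, 1 and 0 UMIs in the rich macrophages, against 0 in Ad-Null.

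**Figure D5:**
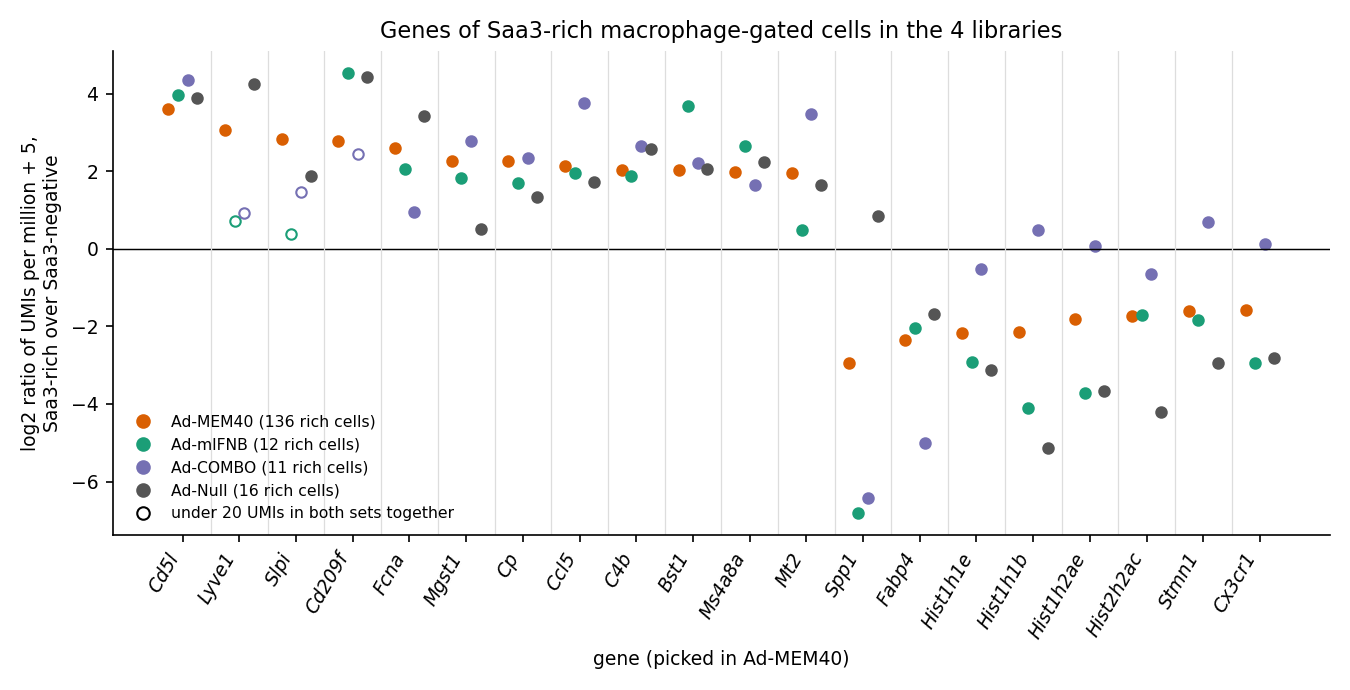
Log2 ratio of CPM plus 5 in Saa3-rich over Saa3-negative macrophage-gated cells, for the 12 highest and 8 lowest named genes picked in Ad-MEM40, in all 4 libraries. Hollow points rest on under 20 UMIs. Cd5l lies between 3.61 and 4.34 in all 4 libraries, whereas Spp1 is negative in the treated ones and at 0.86 in Ad-Null.

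Splits by single macrophage genes were chosen after these values were seen. Cd5l and Lyve1 were picked from the Saa3-rich macrophages, so a higher Saa3 level beside them restates that choice. Macrophages with a Cd5l UMI were 5.85%, 9.64% and 12.8% of the class, against 7.52% in Ad-Null. Their Saa3 level was 785, 4088 and 2849.6 CPM, against 283 CPM, and that of macrophages without Cd5l was 105, 148 and 378 CPM, against 19.0 CPM in Ad-Null. With and without Cd5l, Saa3 was thus higher in each treated library than in the control, but single cells weigh on this. With Cd5l, 1 of 19 cells held 793 of 1739 UMIs in Ad-mIFNB, and 1 of 11 held 521 of 793 in Ad-COMBO. Without Cd5l, 1 cell held 269 of 552 and 233 of 528 UMIs in these libraries. In Ad-MEM40 it was 320 of 3300 with Cd5l and 308 of 5081 without. Cells with Cd5l were deeper, at median depths of 15726, 22825 and 24988 UMIs, against 24200 in Ad-Null, than cells without it, at 10574, 17148 and 14858, against 16439. Macrophages with both Folr2 and Lyve1 were 218 of 4087 in Ad-MEM40, 1 of 197 in Ad-mIFNB and 1 of 86 in Ad-COMBO, against 60 of 1409 in Ad-Null. In them Saa3 stood at 566 CPM in Ad-MEM40 and 297 CPM in Ad-Null, and in macrophages without Folr2 at 38.0 and 6.81 CPM.

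Among classes of at least 50 cells, Hp was highest in monocytes in Ad-MEM40, Ad-mIFNB and Ad-Null, while Ad-COMBO had only 27 monocytes. Hp levels in monocytes differed less between libraries than those of Saa3 in macrophages. Monocyte-gated cells, defined by Vcan, Ccr2, F10 and related markers, had 31.1 CPM (28.2 to 34.3) for Ad-MEM40, 6.37 CPM (3.64 to 10.3) for Ad-mIFNB and 33.9 CPM (18.5 to 56.9, from 14 UMIs in 2 of 27 cells) for Ad-COMBO, against 23.8 CPM (21.1 to 26.7) in Ad-Null. The log2 ratio was 0.33 for Ad-MEM40 and -1.34 for Ad-mIFNB, and the Ad-COMBO cells were too few for one. Monocytes carried 41.3%, 55.2% and 93.3% of Hp UMIs, against 59.2% in Ad-Null. By the cluster named for monocytes, Hp stood at 33.9, 9.58 and 60.5 CPM, against 15.5 CPM, which moves the log2 ratio of Ad-MEM40 to 0.93 and that of Ad-mIFNB to -0.49. Whether Hp exceeded 1.5-fold in monocytes therefore depended on how they were defined.

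Shares of monocytes with an Hp UMI were 14.4% (12.5 to 16.5), 4.32% (1.75 to 8.70) and 7.41% (0.910 to 24.3), against 19.6% (16.5 to 23.1) in Ad-Null, at median depths of 9648, 14760, 16032 and 17720 UMIs. In Ad-MEM40 the share was below and the level above that of Ad-Null, so no order is read from it. Thinned, the shares were 2.66% and 0% in Ad-MEM40 and Ad-mIFNB, against 2.11%. The cDC1, taken as background, had an Hp UMI in 0.838%, 0% and 0% of cells, against 0.407%. Macrophages had 3.10, 1.69 and 0 CPM, against 1.03 CPM, from 163, 7 and 0 UMIs, against 29. The interval of Ad-MEM40 (2.64 to 3.61) lay above that of Ad-Null (0.691 to 1.48), at a plain ratio of 3.00 and a log2 ratio of 0.42 with 5 CPM added, while that of Ad-mIFNB (0.678 to 3.48) overlapped it and 0 UMIs in Ad-COMBO allow up to 2.20 CPM. No cell had more than 18 Hp UMIs in Ad-MEM40, 4 in Ad-mIFNB and 7 in Ad-COMBO, against 16 in Ad-Null.

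Both genes met in few cells. Cells with a UMI of each numbered 115 in Ad-MEM40, 4 in Ad-mIFNB and 1 in Ad-COMBO, against 18 in Ad-Null. In Ad-MEM40 22.5% of Hp-positive cells also had Saa3, against 8.86% of the rest, and in Ad-Null 7.69% against 4.15%. Within monocyte-gated cells these shares were 26.4% and 6.96% in Ad-MEM40, and 7.02% and 3.43% in Ad-Null. After thinning to equal depth, 11 cells of Ad-MEM40 and 0 of Ad-Null had both, so cells with both were not detectable in Ad-Null at this depth.

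Over 23 profiles, each the summed cells of 1 class in 1 library, 8036 genes were ranked by Pearson correlation of log2(CPM + 5) with each gene, as a description. The profiles share libraries, depths and classes. Saa3 and Hp themselves had r = 0.18. Most like Saa3 were Clcn7 (0.90), a lysosomal chloride transporter, Ms4a8a (0.90), Fblim1 (0.89), Slc28a2 (0.88), a nucleoside transporter, and Clec4d (0.88), a C-type lectin. Trem2 (0.88), itself a marker used to gate macrophages, Igf2bp2 (0.87) and P2rx4 (0.87) followed, and all 8 were highest in macrophages. Most like Hp were Plcb1 (0.96) and Serpinb2 (0.90), then Vcan (0.89), Trem1 (0.85) and F10 (0.80), which are gate markers of monocytes. Cebpe (0.84), a C/EBP factor of the granulocyte lineage, Retnla (0.82) and Cxcl3 (0.79) completed the list.

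The number of other acute-phase genes past 1.5-fold differed by virus. Of 30 listed, 18 had at least 20 UMIs with Ad-MEM40, of which 2 were at least 1.5-fold higher and 0 lower, with a median log2 ratio of 0.18, against 0.02 over all genes, of which 0.776% were higher and 0.34% lower. In Ad-mIFNB 1 of 14 was higher and 3 lower, with a median of -0.19 against -0.02 over all genes, of which 2.65% were higher and 1.41% lower. In Ad-COMBO 6 of 16 were higher and 2 lower, with a median of 0.10 against -0.01, and of all genes 5.98% were higher and 3.22% lower. With 5 CPM added, genes of few CPM hardly reach 1.5-fold in either direction, here and in the lists below. In Ad-MEM40 Orm1 had 310 UMIs, against 6 in Ad-Null, at a log2 ratio of 0.41, and Saa1 7, against 63, at -0.098. C3, complement component 3, had 37.0, 3.85 and 18.5 CPM, against 12.0 CPM in Ad-Null, so it was above the control in Ad-MEM40 and below it in Ad-mIFNB. Cfb, complement factor B, had 80.6, 77.2 and 114 CPM, against 44.2 CPM, and was the only listed gene past 1.5-fold in all 3. The metallothionein Mt1 had 745, 463 and 438 CPM, against 748 CPM. Hamp, the iron hormone hepcidin, had 8.10 CPM in Ad-COMBO, against 0.0746 CPM. The cluster neighbours of Saa3 were close to 0, with 7, 1 and 0 UMIs of Saa1, against 63 in Ad-Null, and at most 3 UMIs of Saa2 or Saa4 in any library.

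Within macrophages of Ad-MEM40, of 12 members of this acute-phase list with at least 20 UMIs, 7 were at least 1.5-fold higher in the Saa3-rich cells and 0 lower, with a median log2 ratio of 1.21, against 0.0038 over all genes, of which 5.3% were higher. They were Lcn2 (2.91), which binds bacterial siderophores, Cp or ceruloplasmin (2.27), Mt2 (1.95), C3 (1.85), Orm1 or orosomucoid (1.83), Cfb (1.40) and Lbp (1.0205), the lipopolysaccharide binding protein. Of these, 4 had at least 20 UMIs in the other libraries, and 3 of them were past 1.5-fold in Ad-mIFNB, 4 in Ad-COMBO and 4 in Ad-Null, where 15.7%, 20.2% and 13.1% of all genes were. Hp was not among them, at 3.68 CPM in rich and 2.78 CPM in Saa3-negative macrophages of Ad-MEM40.

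Cytokines that drive the acute phase in the liver differed by virus. Il6 had 7.82, 26.1 and 36.0 CPM, against 9.32 CPM in Ad-Null, with log2 ratios of -0.16, 1.119 and 1.52. Tnf had 124, 179 and 307 CPM, against 108 CPM, with 0.19, 0.70 and 1.46. Il1b had 733, 374 and 485 CPM, against 666 CPM, with 0.14, -0.83 and -0.46. Of the 9 listed cytokines 8 were measured, of which 1 was higher and 0 lower in Ad-MEM40, 2 and 1 in Ad-mIFNB, and 3 and 0 in Ad-COMBO, with medians of 0.02, -0.02 and 0.03. Over all genes the shares higher were 0.776%, 2.65% and 5.98% and the shares lower 0.34%, 1.41% and 3.22%, with medians of 0.02, -0.02 and -0.01. The 1 in Ad-MEM40 was Il1a, at 0.59, and the third in Ad-COMBO was Lif, at 0.79. Of the 8 receptors of these cytokines 0 were past 1.5-fold in Ad-MEM40 and Ad-mIFNB, and 1, Lifr, was lower in Ad-COMBO at -0.59, with medians of 0.08, 0.02 and 0.05. Among 12 transcription factors and feedback genes 0 were past it in Ad-MEM40. Relb was higher in Ad-mIFNB at 0.69, and Relb (1.08) and Nfkb2 (0.81), both of the NF-kB family, were higher in Ad-COMBO, with medians of 0.09, 0.11 and 0.16 over the 3 comparisons. Cebpb had 341, 252 and 236 CPM, against 294 CPM, and Stat3 154, 159 and 207 CPM, against 139 CPM, and neither reached 1.5-fold.

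On the receiving side, 2 of 9 receptors reported for serum amyloid A were higher in Ad-MEM40, 0 in Ad-mIFNB and 1 in Ad-COMBO, and none was lower, with medians of 0.32, -0.01 and 0.25, where 0.776%, 2.65% and 5.98% of all genes were higher, with medians of 0.02, -0.02 and -0.01. Fpr2, a formyl peptide receptor, had 12.98, 4.59 and 6.87 CPM, against 3.28 CPM in Ad-Null, and Fpr1 4.01, 0.631 and 1.64 CPM, against 0.951 CPM. The log2 ratios in Ad-MEM40 were 1.118 for Fpr2 and 0.60 for Fpr1. Cd36, a scavenger receptor, was the one past 1.5-fold in Ad-COMBO, at 114 CPM, against 72.8 CPM. Of the 11 genes of haptoglobin and heme clearance, 3 were higher in Ad-MEM40 and 0 lower, with a median of 0.35, against 0.776% of all genes higher and a median of 0.02. Summed macrophage markers stood at 5518 CPM in Ad-MEM40 and 3413 CPM in Ad-Null, and macrophage-gated cells at 26.1% and 16.1% of cells, and their part in this was not tested. The 3 genes were Hmox1, heme oxygenase 1, with 323 CPM against 161 CPM, Blvrb, a biliverdin reductase, with 188 CPM against 86.5 CPM, and Fth1, ferritin heavy chain, with a log2 ratio of 0.73. In Ad-mIFNB 1 of 10 was lower, Lrp1 at -0.79, with a median of -0.25, where 1.41% of all genes were lower. In Ad-COMBO 1 of 10 was higher, Slc11a1 at 0.67, with a median of -0.15, where 5.98% of all genes were higher. Summed macrophage markers stood at 2761 CPM in Ad-mIFNB and 3510 CPM in Ad-COMBO. Cd163, the haptoglobin-haemoglobin scavenger receptor, had 2.51, 1.09 and 1.44 CPM, against 2.51 CPM.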

How the data were processed

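The authors deposited 4 matrices of UMI counts, and the entries are whole numbers. Cell Ranger 3.0, Seurat 4.0 and the mm10 build are named in the submitters' processing notes, whereas, per the file headers, the matrices came from Cell Ranger 6.0.0. Barcodes with at least 500 genes and at most 10% mitochondrial UMIs were kept, which left medians of 9483 to 15277 UMIs per cell.

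Marker lists gated the cells. Each marker's z-score was limited to 4, and a class needed 3 detected markers, a mean score of 0.3 and a lead of 0.2 over the next class. These cuts were set after the data were seen, and 4920 cells lay within 0.1 of one. Ratios within a class needed 50 cells in both libraries. Leiden clusters (resolution 1, scanpy 1.11.5, Python 3.11.15) named by the same markers were an alternative, and names rebuilt in this way may differ from the authors' own. Scrublet's automatic threshold gave 0%, 0.166%, 0.447% and 15.7% doublets in Ad-MEM40, Ad-mIFNB, Ad-COMBO and Ad-Null. The expected share of 0.8% per 1000 cells replaced it in the first and the last, where 1961 and 612 cells were called. Called cells were kept, and left out in an alternative.

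UMIs were summed per library or class and divided by all its UMIs (CPM). Log2 ratios add 5 CPM to both sides, and genes needed 20 UMIs over the pair. With 1 library per virus there was no test and no p-value. Intervals are exact at 95%, and 3 UMIs stand for the limit of a gene with 0 UMIs. The step that makes ratios and intervals was tested on simulated data.

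The genes, gene lists and markers were chosen with earlier results of these data known. Named genes were the members, of each of 6 gene lists those with the highest levels or largest ratios, and the 8 genes most correlated with each member. Those needed 20 CPM in a profile of at least 50 cells, and mitochondrial, ribosomal, haemoglobin, antigen receptor, Xist, Y-linked and unnamed genes were left out. The Saa3-rich threshold, the 12 highest and 8 lowest genes of the rich macrophages (at least 50 CPM in rich or Saa3-negative cells) and the splits by Cd5l, Folr2 and Lyve1 were chosen after seeing the data. Alternatives were stricter cell filters, doublets removed, pseudocounts of 1 and 20 CPM, median centring, equal class weights, thinning to 1000 UMIs, the 10 highest cells or shared barcodes left out, and clusters or a stricter gate as classes. Leaving out the highest 1% or 2% of cells or the fibroblast-gated cells, and leaving out top cells within a class, were added after seeing the data. So were plain ratios with nothing added and the exchange of class shares without fibroblast-gated cells.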

Additional observations from a re-analysis of the deposited data

Results flagged for a closer look

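The Saa3 ratio of Ad-mIFNB over Ad-Null had opposite signs in different marker-gated classes, a difference that was not tested and whose size depended on whether gates or clusters were used. The log2 ratio over Ad-Null was 3.47 in macrophage-gated cells, 3.06 in mature DC and 2.74 in pDC, and -2.30 in monocyte-gated cells. Single cells weigh on these values. One Ad-mIFNB cell held 91.7% of the Saa3 UMIs of mature DC and another 98.1% of those of pDC, and 1 Ad-Null cell, called a doublet, held 84.3% of those of monocytes. In clusters, Saa3 stood at 3.42 CPM in Ad-mIFNB, against 1.81 CPM in Ad-Null, for mature DC, at 1.36 CPM, against 2.22 CPM, for pDC and at 6.16 CPM, against 7.76 CPM, for monocytes. An unnamed cluster led by Ccl22, Ccr7 and Fscn1 had 123 CPM, against 8.09 CPM, with 155 of its 233 Ad-mIFNB UMIs in 1 mature DC-gated cell. For the 3 named clusters the counting intervals overlapped, whereas the macrophage clusters had a log2 ratio of 3.28.

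Saa3 was also seen among barcodes that failed the cell filter, above the level of the control. It stood at 83.8 CPM (76.0 to 92.1) in 2529 such barcodes of Ad-MEM40 and at 100.5 CPM (80.2 to 124) in 283 of Ad-COMBO, but at 19.4 CPM (10.3 to 33.1, from 13 UMIs) in 266 of Ad-mIFNB, against 14.9 CPM (11.7 to 18.5) in 2563 of Ad-Null, whose interval overlapped that of Ad-mIFNB. In Ad-COMBO 45 of the 84 UMIs came from 1 barcode, and in Ad-MEM40 99 of 429 did.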

How the results depend on the processing

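No paired analysis was possible because each virus had 1 library. Of 135 alternative values of the log2 ratios, 62 stayed within the counting interval and the others moved out of it, and 5 changed sign. Of these, 3 were without the 10 highest cells, namely Saa3 in Ad-COMBO over Ad-MEM40 and over Ad-mIFNB and Hp in Ad-COMBO over Ad-mIFNB (-0.050, still within the interval). The others were Hp in Ad-COMBO over Ad-Null when thinned and over Ad-mIFNB with equal class weights. Of 33 alternatives of Saa3 over Ad-Null in all cells, 30 were still at least 1.5-fold higher. The rest left out the cells with most Saa3, namely the 10 highest for Ad-mIFNB (0.22) and Ad-COMBO (0.21) and the highest 1% for Ad-mIFNB (0.33). Saa3 was picked for this rise, so the count is a description. Median centring and leaving out shared barcodes moved none of the 10 ratios over all cells. Ratios are given over Ad-Null unless Ad-COMBO is set against a single virus. The causes were not tested.

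For Saa3 in all cells, leaving out the 10 highest cells gave 2.34 for Ad-MEM40, 0.22 for Ad-mIFNB and 0.21 for Ad-COMBO, and -2.13 for Ad-COMBO over Ad-MEM40 and -0.016 over Ad-mIFNB. Leaving out the highest 1% gave 1.76, 0.33 and 1.95, and 0.19 and 1.61. Without fibroblast-gated cells the 3 ratios over Ad-Null were 2.01, 2.37 and 3.32. Thinning gave 1.97, 1.41 and 2.48, and 0.51 and 1.07. Equal class weights gave 1.54, 2.52 and 3.64, and 1.80 and 0.40. A pseudocount of 1 CPM gave 1.80, 2.10 and 3.09, and one of 20 CPM 1.21, 1.46 and 2.32, and 1.11 and 0.86. Stricter cell filters gave 1.57 for Ad-MEM40 and 1.37 for Ad-COMBO over it, and doublet removal 1.75 and 1.15.

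For Hp in all cells, a pseudocount of 1 CPM gave 0.71 for Ad-MEM40, -0.99 for Ad-mIFNB and -0.66 for Ad-COMBO, and -1.36 for Ad-COMBO over Ad-MEM40 and 0.33 over Ad-mIFNB. One of 20 CPM gave 0.15 and -0.13 for the single viruses and -0.25 for Ad-COMBO over Ad-MEM40. Equal class weights gave 0.27 and -0.63 for the single viruses, and -0.47 and -0.10 for Ad-COMBO over them. Thinning gave 0.73 for Ad-MEM40, 0.040 for Ad-COMBO and 0.53 for Ad-COMBO over Ad-mIFNB. Without the 10 highest cells Ad-mIFNB had -0.51, Ad-COMBO -0.56 and Ad-COMBO over Ad-MEM40 -0.97, and without the highest 1% Ad-MEM40 had 0.26 and Ad-mIFNB -0.25.

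For Saa3 in macrophages, clusters gave 1.53, 3.28 and 3.74, doublet removal 1.80, 3.33 and 3.84, the 10 highest cells left out 2.41, 0.25 and 0.14, and the highest 1% left out 2.12, 3.85 and 4.82. The 1% cut kept most Saa3-rich macrophages of the treated libraries, while in Ad-Null they were only 1.14% of the class. The stricter gate gave 1.81 for Ad-MEM40 and 3.57 for Ad-mIFNB. For Hp in monocytes, clusters gave 0.93 for Ad-MEM40 and -0.49 for Ad-mIFNB, where the stricter gate gave -0.69 and leaving out 10 cells -2.15. The share of rich macrophages in Ad-MEM40 was 4.65% at 500 CPM and 2.01% at 2000 CPM. Depth limits Hp in Ad-mIFNB and Ad-COMBO, with 29 and 15 UMIs.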

Other observations

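Hp was not confined to monocytes. In the macrophage cluster led by Retnla, Lyz1 and Cd5l it stood at 6.20 CPM (5.01 to 7.60) in Ad-MEM40, 6.66 CPM (2.44 to 14.5) in Ad-mIFNB and 0 CPM in Ad-COMBO, against 7.95 CPM (6.02 to 10.3) in Ad-Null. The cluster held 9.25%, 20.7% and 0% of the Hp UMIs, against 11.8% in Ad-Null.

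A cluster led by the interferon-induced genes Ifit3b, Ifit1bl1 and Ifit3 held 30.4% of Ad-mIFNB and 16.7% of Ad-COMBO cells, and its Saa3 level there was 0.596 and 0 CPM. UMIs of Ifnb1, the interferon beta gene, numbered 184, 90 and 28, against 101 in Ad-Null, or 1.01 CPM (0.871 to 1.17) in Ad-MEM40, 3.15 CPM (2.54 to 3.88) in Ad-mIFNB and 2.87 CPM (1.91 to 4.15) in Ad-COMBO, against 0.628 CPM (0.512 to 0.763) in Ad-Null. In Ad-mIFNB 23 of the 90 lay in 2 of the Saa3-rich cells.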
